A study of Arabidopsis thaliana with 9 samples.

Results

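The comparison described here sets pollen tubes grown in culture (in vitro) against young floral buds (Bud) of Arabidopsis thaliana, and uses 6 of the 9 arrays of the study, the 3 titled in vitro and the 3 titled Bud. The other 3 arrays, titled in vivo, entered the fit for its estimate of the spread and are not compared. The question of the comparison is how the mRNA carried by pollen ribosomes in elongating tubes differs from that in the buds where pollen is still developing. All plants carried the transgene LAT52-HF-RPL18, in which the pollen promoter LAT52 drives ribosomal protein L18 with a FLAG tag, and all grew at 22 °C under an 18 h day and a 6 h night. The in vitro samples were pollen tubes in culture, with no culture time in the labels, and the Bud samples were floral buds of stage 11 to 12. In both groups polysomes, the mRNAs that carry several ribosomes, were collected from sucrose gradients of 20% to 60%, pulled down through the FLAG tag, amplified and hybridised to Affymetrix arrays. The promoter, and not the dissection, sets which cells carry the tag, and the labels do not say which cells of the bud did so. Elsewhere in the submission the same material is described as styles before pollination. The sample labels, which were followed here, give floral buds, with a tissue entry of pollen grains and tubes.

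A pollen grain of Arabidopsis holds a vegetative cell, which grows the tube, and sperm cells carried inside it. The tube extends at its tip by secreting pectin-rich wall, which enzymes soften or stiffen, while receptor kinases at the tip sense the state of the wall and ROP GTPases, calcium and actin direct the secretion. Pollen is loaded with mRNA before it is shed, and tube growth rests in large part on translation of that store. In the bud the anther around the pollen is lined by the tapetum, which feeds it and deposits its coat, and the sepals and other organs are green.

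Signals are the deposited MAS5 values, 1 per probe set and array, and a log2 fold is the in vitro mean minus the Bud mean of log2(signal + 16), with its standard error (SE). Every difference below is such a log2 fold, and every level is a signal. Each adjusted p is from limma with Benjamini-Hochberg (BH) adjustment over all 22746 probe sets, and a probe set was called at an adjusted p under 0.05. Of these probe sets 4645 (20.4%) were called higher in vitro and 9214 (40.5%) lower, and the median log2 fold was -0.42. Every array had been scaled to a trimmed mean of about 500, yet the median signal was 68.6 to 111.5 on the in vitro arrays and 175 to 196 on the Bud arrays, while a few bright probe sets took more of the in vitro signal. The brightest 1% of probe sets held 44.8% to 64.1% of all signal in vitro and 24.6% to 28.2% in Bud. After quantile normalization, which gives all arrays the same distribution, 6827 probe sets (30.0%) were called higher and 6232 (27.4%) lower, with a median of 0.22. With equal array medians 41.7% were called higher and 27.1% lower. Every in vitro array stood above every Bud array for 5168 probe sets (22.7%) and below it for 9342 (41.1%). No probe set was called in opposite directions as deposited and after quantile normalization, while 3021 of the 9214 lower calls and 103 of the 4645 higher calls were lost with quantile normalization. In vitro replicate 3 stood apart in its brightest probe sets, with a maximum of 664123, against 113249 and 145326 on in vitro replicates 1 and 2. Without it 4628 probe sets were called higher and 9789 lower. No difference in level between genes is read from their signals: orders by signal below only choose genes, and sums add signals that are not on 1 molar scale.

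The markers of the labelled material were measured in part. Of 11 pollen tube markers 9 had a probe set, and their summed signal was 404400 to 564370 in vitro, against 1369 to 2283 in Bud. For the tapetum, 3 of 8 markers were measured (A9, AMS and SHT), with a summed signal of 39.3 to 577 in vitro and 6455 to 8735 in Bud. Of 5 markers of green tissue 4 were measured, with 286 to 602 in vitro and 31192 to 56986 in Bud. The Bud pull-downs therefore held mRNA of genes that mark other bud tissues, and its part in the results below was not tested. In such bulk samples fewer cells of a type and less RNA per cell cannot be told apart.

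**Figure D1:**
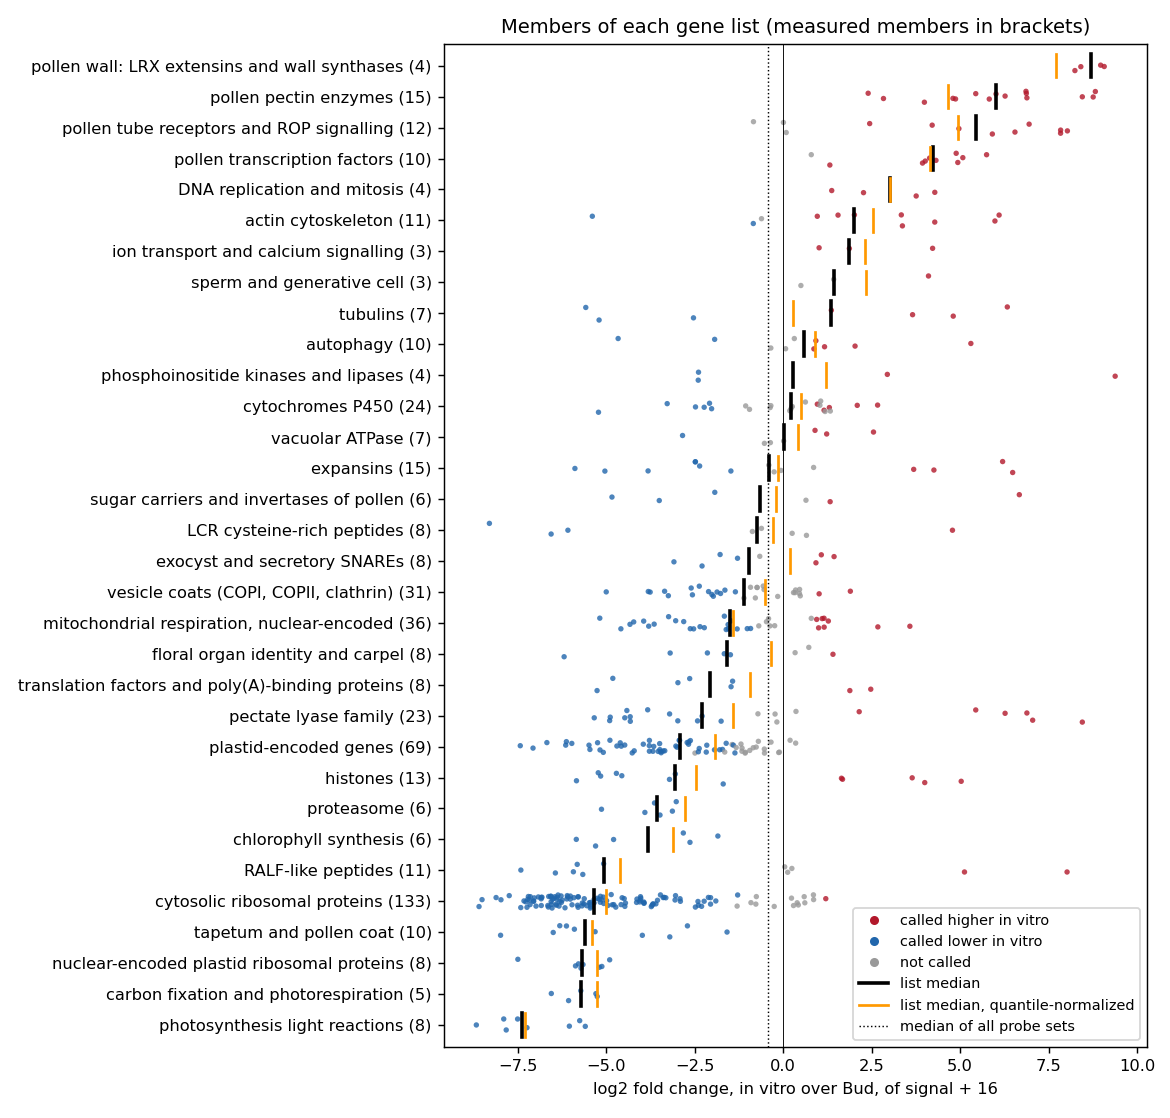
Log2 fold of every measured member (1 point each) of the gene lists with 3 or more measured members, in vitro over Bud, with list medians before (black) and after (orange) quantile normalization. Pollen tube lists stand at the top, with a median of 8.69 for the LRX wall proteins, and photosynthesis at the bottom with -7.37. Families in the middle, such as tubulins, histones, expansins and pectate lyases, hold members called in both directions.

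The genes for cytosolic ribosomal proteins, the protein parts of the ribosome itself, were lower in cultured tubes almost throughout. Of 236 such genes 133 were measured, of which 119 (89.5%) fell, 1 rose and 13 were not called, with a median log2 fold of -5.34, against 40.5% called lower and a median of -0.42 over all probe sets. With quantile normalization 118 were lower, against 27.4% of all probe sets, and 4 higher, and the median was -5.0. Both subunits took part: 44 of 48 genes of the small (40S) subunit fell, with a median of -5.17, as did 63 of 71 of the large (60S) subunit, with a median of -5.45, and 12 of 14 of the acidic stalk proteins, with a median of -4.31. The median of the gene means was 106 in vitro and 6054 in Bud. Together the 133 genes held 0.113%, 0.108% and 0.0906% of the array signal in vitro, against 6.28%, 5.21% and 5.97% in Bud, and the 2 groups did not overlap. An exact permutation test of 3 arrays against 3 (two-sided) gave p = 0.1, the smallest p it can reach.

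In the small subunit, AT3G02080 (RPS19), with 18.7, 12.2 and 31.7 in vitro and 12991, 8169.9 and 9265 in Bud, had a log2 fold of -8.11 ± 0.34 (SE, BH-adjusted p = 5.97e-08). The groups stood far apart for this gene. AT5G15200 (RPS9) had 179.6, 166 and 113 in vitro and 20026, 22231 and 24534 in Bud, with a log2 fold of -7.06 ± 0.33 (SE, BH-adjusted p = 6.66e-08). In the large subunit, AT4G16720 (RPL15) had 179, 6.45 and 7.89 in vitro and 19263, 15118 and 20665 in Bud, with a log2 fold of -8.59 ± 0.69 (SE, BH-adjusted p = 9.19e-07). The in vitro values of AT4G16720 spread widely, with replicate 1 the highest, but all lay far below the Bud arrays. AT3G49910 (RPL26) and AT1G67430 (RPL17) had log2 folds of -7.97 and -7.14. The tagged protein of the transgene is an L18, and AT5G27850, an RPL18 gene, fell too, with 177, 116 and 73.7 in vitro, 13245, 10784 and 13317 in Bud and a log2 fold of -6.56. Of the 2 measured RPL18 copies only 1, AT5G27850, was called lower. The other, with signals below 200 on all 6 arrays, was not called. The labels do not say which RPL18 copy the transgene carries.

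A ribosomal protein is usually encoded by several near-identical genes, so each family was also summed over its measured copies. The 133 genes fall into 59 families, and the summed signal was lower in vitro in 58 of them, with a median log2 ratio of -5.17. In 46 families every measured copy fell. In 3 families no copy was called, and each of those 3 had 1 measured copy, with a mean below 100 in Bud. Cross-hybridisation between copies was not tested. Of the 13 genes that were not called, 12 had signals below 200 on all 6 arrays.

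The mean in vitro signal was above 1000 for 7 of the 133 genes, and 6 of these 7 still fell. AT1G52300 (RPL37) had 2409.5, 3642 and 5094 in vitro and 25628, 16794 and 18292 in Bud, with a log2 fold of -2.48 ± 0.35 (SE, BH-adjusted p = 8.59e-05). AT1G77940 (RPL30) had 2354, 2801 and 2592 in vitro and 12897, 10581 and 10316 in Bud, with a log2 fold of -2.11 ± 0.33 (SE, BH-adjusted p = 0.000187). AT1G18540 (RPL6), AT3G28500 (RPP2), AT3G60245 (RPL37A) and AT4G00810 (RPP1) had log2 folds of -2.40, -2.23, -3.94 and -1.90. The seventh, AT2G45710 (RPS27), had 742, 1097 and 1343 in vitro and 2584, 1510.2 and 1384 in Bud, and its log2 fold of -0.76 did not pass (adjusted p = 0.0929), but without in vitro replicate 3 it was called lower (-0.95). The gene that rose, AT1G02830 (RPL22), was dim, with 105, 44.1 and 167 in vitro and 56.2, 22.3 and 23.5 in Bud. Its log2 fold was 1.20 ± 0.46 (SE, BH-adjusted p = 0.0397), and it was not called without in vitro replicate 1 or 3 or without Bud replicate 2 or 3.

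**Figure D2:**
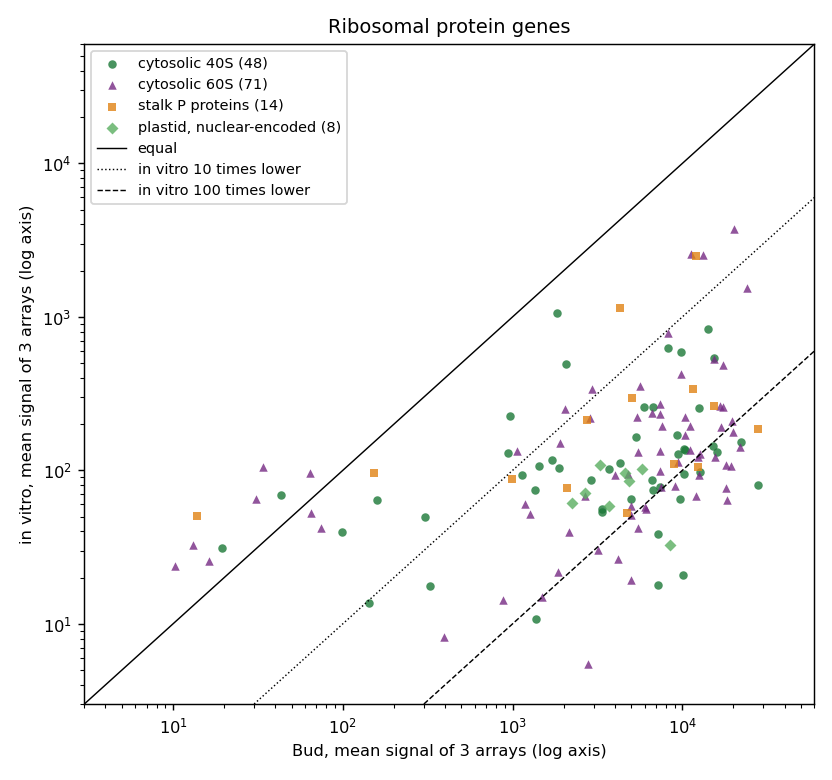
Mean signal of 3 in vitro arrays (vertical, log axis) against mean signal of 3 Bud arrays (horizontal, log axis) for 133 cytosolic ribosomal protein genes and 8 nuclear genes of plastid ribosomal proteins, 1 point per gene, with lines for equal signal and for in vitro 10 and 100 times lower. Most points lie below the line of equality, and the median of the gene means is 106 in vitro and 6054 in Bud for the cytosolic genes.

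Other parts of the translation machinery did not all move with the ribosome. Of 48 listed translation factors and poly(A)-binding proteins 8 were measured, all of them translation factors. Of these 8, 6 fell and 2 rose, against 40.5% and 20.4% of all probe sets. With quantile normalization 3 were lower and 2 higher, against 27.4% and 30.0% of all probe sets. AT5G19510, an elongation factor 1-beta subunit, fell to 327, 266 and 186 in vitro, against 8566, 11275 and 11283 in Bud, a log2 fold of -5.26 ± 0.34 (SE, BH-adjusted p = 2.38e-07). AT4G20980, an initiation factor 3 subunit, had a log2 fold of -4.81. EIF4A-2, the helicase of translation initiation, had 491, 318 and 541 in vitro and 2984, 4081 and 3718 in Bud, with a log2 fold of -2.98 ± 0.33 (SE, BH-adjusted p = 1.04e-05). AT5G12110, another elongation factor 1-beta gene, AT1G72730, another helicase of the 4A type, and AT2G40290, the alpha subunit of initiation factor 2, had -2.64, -1.47 and -1.43, and these 3 were not called after quantile normalization. The 2 genes that rose encode initiation factor 5, which checks start-codon recognition. AT1G77840 had 7694, 9354 and 6793 in vitro and 1199.7, 1784 and 1294 in Bud, a log2 fold of 2.47 ± 0.33 (SE, BH-adjusted p = 5.43e-05). AT1G36730 had 3638, 2876 and 3509 in vitro and 708, 938 and 1058 in Bud, a log2 fold of 1.88 ± 0.33 (SE, BH-adjusted p = 0.000411). Neither overlapped between the groups. No poly(A)-binding protein gene had a probe set named here. All 6 measured proteasome genes, whose products degrade tagged proteins, fell (against 40.5% of all probe sets), with a median of -3.56. The base subunit RPT4B led them, with 129, 67.3 and 42 in vitro and 3044, 3011 and 3262 in Bud, a log2 fold of -5.13 ± 0.36 (SE, BH-adjusted p = 4.12e-07), and RPN7, RPN12a, RPN2A, AT5G45620 (an RPN9 gene) and AT5G23540 (an RPN11 gene) had -3.91, -3.64, -3.02, -3.48 and -3.13.

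Of the 12 called genes brightest in the tubes, 5 encode enzymes or inhibitors of pectin turnover. AT3G28750, for which no function is given here, had 100924, 128183 and 545293 in vitro, against 2856, 2996 and 1579.7 in Bud, a log2 fold of 6.32 ± 0.61 (SE, BH-adjusted p = 4.03e-06). AT1G10770, of the pectin methylesterase inhibitor family, had 107641, 113960 and 490541 in vitro and 2687, 2299.8 and 569.7 in Bud, a log2 fold of 6.88 ± 0.69 (SE, BH-adjusted p = 4.98e-06). All 12 genes were at 79158 or more on every in vitro array and at 9164 or less on every Bud array. AT2G47050 and AT4G02250, of the same inhibitor family, rose by 5.63 and 4.88. The polygalacturonase AT3G07820, which cuts pectin, had 100097, 103540 and 389364 in vitro and 5212, 2653 and 1581 in Bud, with a log2 fold of 5.82 ± 0.58 (SE, BH-adjusted p = 5.06e-06). AT1G78460, of the SOUL haem-binding family, rose by 7.66, AT5G26700, of the cupin superfamily, by 7.16, AT5G47000, of the peroxidase family, by 5.81 and AT1G29140, of the Ole e 1 pollen allergen family, by 4.56. AT3G26110 and AT4G27580 rose by 5.77 and 8.0, and the pectate lyase AT3G01270 by 6.27. For each of the 12, in vitro replicate 3 was the highest of the in vitro arrays, and after quantile normalization their log2 folds were 2.75 to 6.90, all called.

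The 12 called genes brightest in Bud included 5 ribosomal protein genes and 2 plastid genes. AT1G66850, of the lipid transfer protein family, had 12.3, 80.8 and 160.0 in vitro, against 88886, 56512 and 46985 in Bud, a log2 fold of -9.62 ± 0.90 (SE, BH-adjusted p = 2.98e-06). AT2G20870 had 312, 334 and 575 in vitro and 60643, 52449 and 50744 in Bud, a log2 fold of -7.06 ± 0.33 (SE, BH-adjusted p = 7.65e-08). The thionin THI2.1, an antimicrobial peptide, had 493, 45.1 and 6.50 in vitro and 62217, 33944 and 34202 in Bud. Its in vitro arrays differed widely from each other, with replicate 1 the highest, yet none came near the Bud arrays. AT1G78040, another member of the Ole e 1 family, had 244, 195 and 83.1 in vitro and 33477, 36212 and 39952 in Bud, a log2 fold of -7.70 ± 0.41 (SE, BH-adjusted p = 9.89e-08), so 2 members of that family moved in opposite directions. The defensin-like LCR69 and the plastid genes atpE and psbM had log2 folds of -8.30, -6.68 and -7.43.

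**Figure D3:**
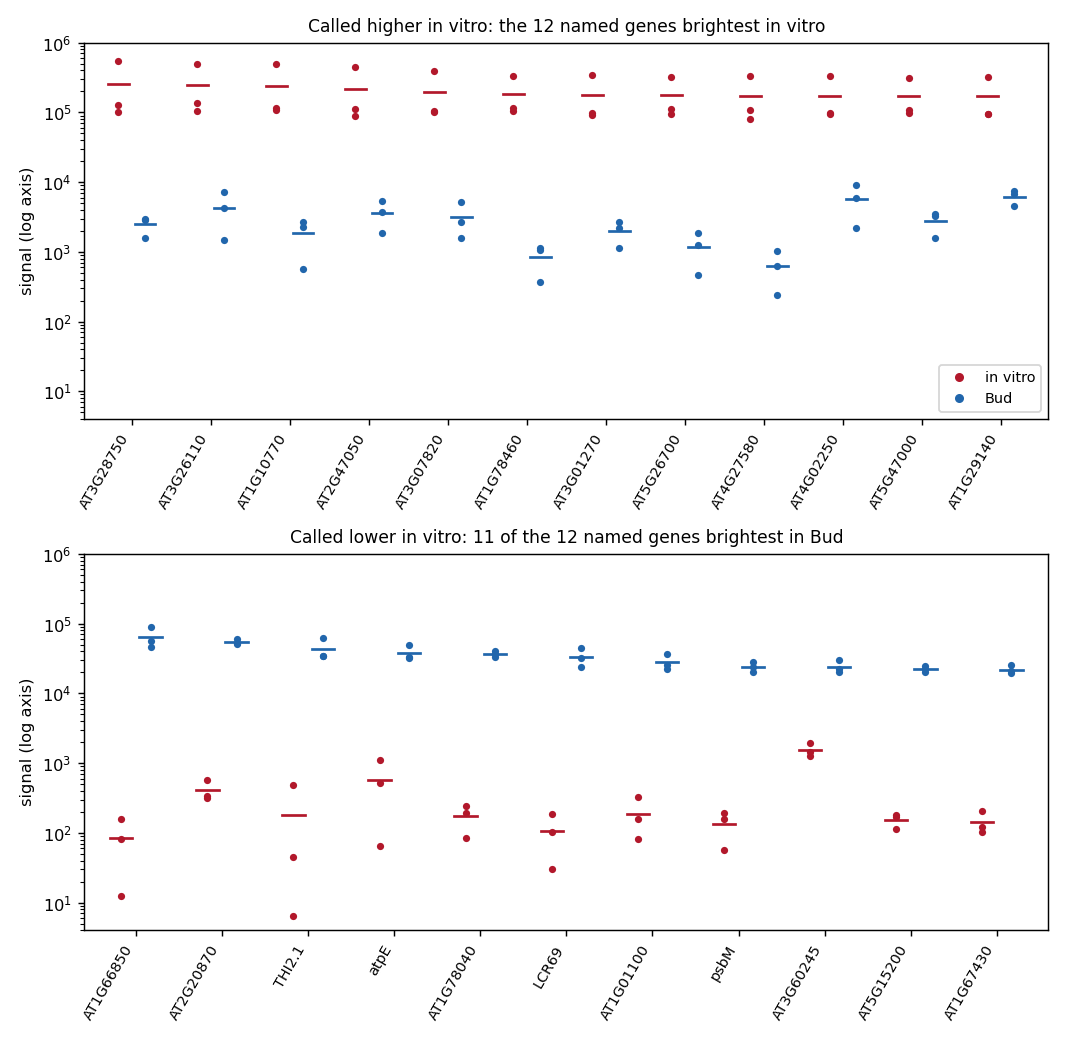
Signals (log axis) on each in vitro (red) and Bud (blue) array, with group means as bars, for the 12 named genes called higher with the highest mean in vitro signal (top) and 11 of the 12 called lower with the highest mean Bud signal (bottom). The points of the 2 groups do not overlap for any gene shown, a condition of the choice, and in vitro replicate 3 is the uppermost red point throughout the top panel.

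Pollen pectin enzymes rose without exception among those measured. The list holds pectin methylesterases, which strip methyl groups so that pectin can gel, and polygalacturonases and pectate lyases, which cut it, all picked because they are known from pollen. It was chosen with earlier results of these data known, so its counts and test only describe the list. Of 26 such genes 15 were measured and all 15 rose, with a median log2 fold of 6.01 (4.66 after quantile normalization), beside 20.4% of all probe sets called higher. The 15 genes held 2.87%, 2.76% and 3.93% of the array signal in vitro, against 0.112%, 0.101% and 0.0472% in Bud, without overlap (exact permutation test, p = 0.1). The methylesterase AT2G26450 had 72969, 72686 and 80762 in vitro and 271, 147 and 83.2 in Bud, a log2 fold of 8.82 ± 0.45 (SE, BH-adjusted p = 8.32e-08). AT3G05610, another methylesterase, had 77670.4, 70503 and 164473 in vitro and 417, 204 and 101 in Bud, a log2 fold of 8.76 ± 0.56 (SE, BH-adjusted p = 2.27e-07). No Bud array came near an in vitro array in either gene. The smallest rise was that of AT5G07420, with 13769, 17387 and 13831 in vitro and 3749.6, 3629.7 and 1628 in Bud, a log2 fold of 2.40 ± 0.49 (SE, BH-adjusted p = 0.00115). Its neighbour in the genome by locus number, AT5G07430, had 86685, 117127 and 187926 in vitro and 1363, 1341 and 623 in Bud, a log2 fold of 6.87 ± 0.45 (SE, BH-adjusted p = 2.57e-07). The 2 genes thus rose by different amounts, and the difference between them was not tested.

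The whole pectate lyase family, taken without regard to pollen, had calls in both directions. Of 26 genes 23 were measured: 6 rose (26.1%, against 20.4% of all probe sets), 13 fell (56.5%, against 40.5%) and 4 were not called, and the median was -2.29. With quantile normalization 8 were higher and the same number, 13, lower. AT59 (AT1G14420), first described from anthers, had 53173, 42284 and 58276 in vitro and 197, 141 and 75.4 in Bud, a log2 fold of 8.45 ± 0.38 (SE, BH-adjusted p = 6.32e-08). AT5G09280 had 3966, 4083 and 4426 in vitro and 7.87, 27 and 14.5 in Bud, a log2 fold of 7.05 ± 0.36 (SE, BH-adjusted p = 8.79e-08). The groups stood far apart in both genes, and no array overlapped. AT2G02720, AT3G01270 and AT5G15110, which the pollen list also holds together with AT59, rose by 6.88, 6.27 and 5.44. AT3G09540 also rose, with 504, 474 and 449 in vitro and 70.2, 146 and 81.6 in Bud, a log2 fold of 2.15 ± 0.34 (SE, BH-adjusted p = 0.000188). At the other end AT5G55720 had 17.7, 8.24 and 148 in vitro and 1607, 2409 and 2239 in Bud, a log2 fold of -5.34 ± 0.60 (SE, BH-adjusted p = 1.23e-05). AT3G53190, AT4G24780, AT1G04680 and AT1G67750 had log2 folds of -4.89, -4.90, -4.48 and -4.42, and none of them overlapped between the groups.

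Expansins, which loosen walls without cutting them, were higher in 4 of 15 measured genes (26.7%), lower in 7 (46.7%) and not called in 4, shares near the 20.4% and 40.5% of all probe sets. EXPB5, a beta-expansin, had 57941, 73678 and 56316 in vitro and 937, 631 and 529 in Bud, a log2 fold of 6.48 ± 0.36 (SE, BH-adjusted p = 1.08e-07). EXPA4, an alpha-expansin, had 62633, 78098 and 150105 in vitro and 1402, 1008 and 1258 in Bud, a log2 fold of 6.20 ± 0.37 (SE, BH-adjusted p = 1.55e-07). All in vitro arrays stood above all Bud arrays in both genes. EXPA16 rose by 4.26 and EXPA7 by 3.69. EXPA8 fell to 3.67, 27.3 and 65.5 in vitro, against 2551, 3094 and 1779 in Bud, a log2 fold of -5.88 ± 0.49 (SE, BH-adjusted p = 1.31e-06). The expansin-like genes EXLA1 and EXLA2 had log2 folds of -5.04 and -3.82. EXPA9, which had a log2 fold of -1.48, was not called after quantile normalization (-0.47, adjusted p = 0.374), and EXPB2 then became a call (1.69, adjusted p = 0.00338).

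**Figure D4:**
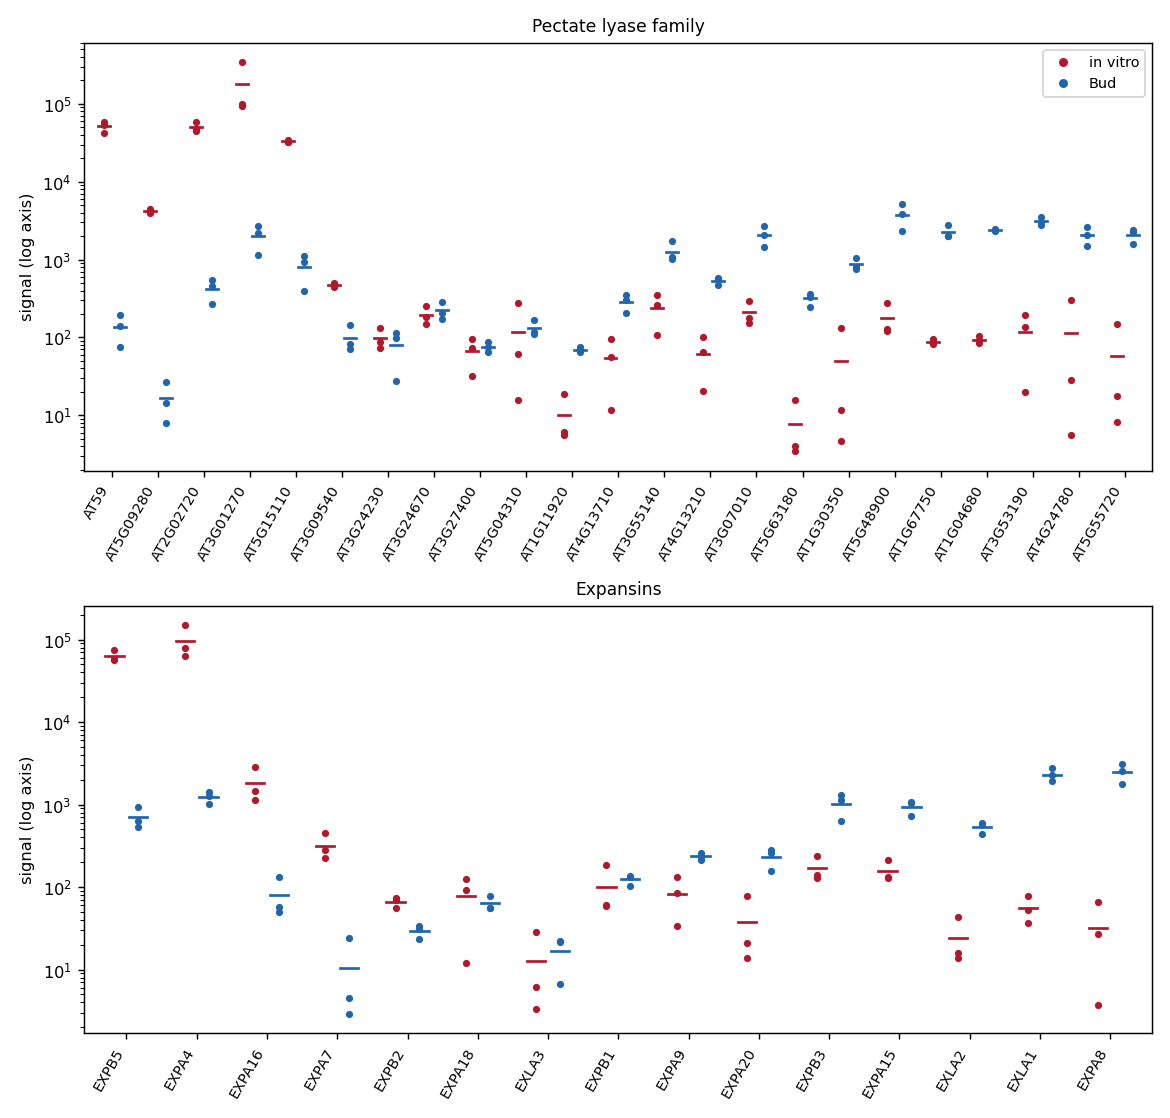
Signals (log axis) on each in vitro (red) and Bud (blue) array, with group means as bars, for 23 pectate lyase genes (top) and 15 expansin genes (bottom), ordered by log2 fold. In each family the genes at the left stand far above Bud in vitro and those at the right far below it, with log2 folds of 8.45 to -5.34 for the lyases and 6.48 to -5.88 for the expansins.

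The leucine-rich repeat extensins LRX8 to LRX11 anchor the tube wall and bind RALF peptides. All 4 rose, against 20.4% of all probe sets, with a median log2 fold of 8.69 (7.72 after quantile normalization). The 4 wall synthases of that list had no probe set named here. LRX11 had 65516, 30711 and 52639.6 in vitro and 139, 47.3 and 53.3 in Bud, a log2 fold of 9.07 ± 0.52 (SE, BH-adjusted p = 1.26e-07). LRX10 had 71262, 75505 and 135503 in vitro and 337, 174 and 70.1 in Bud, a log2 fold of 8.97 ± 0.67 (SE, BH-adjusted p = 5.82e-07), and LRX8 and LRX9 rose by 8.24 and 8.41. The groups did not overlap for any of the 4, beside 22.7% of all probe sets with every in vitro array above Bud.

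Receptors and ROP signalling genes of the tube rose in 9 of 12 measured of 34 listed, against 20.4% of all probe sets. Their median was 5.44, and 3 were not called. MDIS1, a receptor kinase that takes part in sensing the female attractant, had 26025, 18093 and 18874 in vitro and 73.7, 82.4 and 68.4 in Bud, a log2 fold of 7.84 ± 0.44 (SE, BH-adjusted p = 1.17e-07). BUPS2, a receptor kinase that keeps the tube intact, had 12177, 8781 and 7684 in vitro and 97.1, 99.6 and 61.1 in Bud, a log2 fold of 6.55 ± 0.38 (SE, BH-adjusted p = 1.33e-07). For both genes the groups did not overlap. The related receptors BUPS1, ANX2 and ANX1 rose by 7.84, 8.03 and 6.95, and the cytoplasmic kinase MRI, which acts downstream of the ANX receptors, by 5.91. PRK8, a pollen receptor-like kinase, rose by 2.44. MIK1 and MIK2, which are named with MDIS1 as receptors of the attractant, were not called: MIK1 had 91.4, 29.4 and 46.2 in vitro and 69.1, 28.4 and 51.3 in Bud, a log2 fold of 0.09 with a 95% interval of -0.81 to 0.98, and MIK2 had -0.84 with an interval of -1.79 to 0.11. PRK7, with 0.01 and an interval of -1.18 to 1.19, had 8.15, 83.7 and 15.4 in vitro and 6.89, 39.8 and 42.5 in Bud. Without in vitro replicate 3, MIK2 was called lower.

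RALF peptides, the small secreted ligands of such receptors, moved in both directions. Of 11 measured genes 2 rose (18.2%, against 20.4% of all probe sets), 6 fell (54.5%, against 40.5%) and 3 were not called, with a median of -5.07. RALFL26 had 86761, 99303 and 321220 in vitro and 1097, 617 and 209 in Bud, a log2 fold of 8.02 ± 0.62 (SE, BH-adjusted p = 7.48e-07). RALFL25 had 55423, 57144 and 110155 in vitro and 3167, 2266 and 1123 in Bud, a log2 fold of 5.12 ± 0.46 (SE, BH-adjusted p = 2.22e-06). In both, Bud replicate 3 was the lowest of the Bud arrays and in vitro replicate 3 the highest of all. RALFL34 fell to 74.1, 26.2 and 13.5 in vitro, against 9211, 6869 and 8697 in Bud, a log2 fold of -7.41 ± 0.42 (SE, BH-adjusted p = 1.25e-07). RALFL33, RALFL24, RALFL22, RALFL32 and RALFL31 had log2 folds of -6.44, -5.93, -5.82, -5.66 and -5.07. RALFL18, RALFL27 and RALFL28 were not called, and RALFL18 became a higher call after quantile normalization (1.43, adjusted p = 0.00558). Among 8 measured LCR genes, which encode small cysteine-rich peptides, LCR72 rose, with 73585, 86449.8 and 297369 in vitro and 9151, 5053 and 1938 in Bud, a log2 fold of 4.78 ± 0.68 (SE, BH-adjusted p = 7.75e-05). The Bud values of LCR72 differed widely among themselves, and all were below the in vitro values. LCR69, LCR66 and LCR68 fell, with log2 folds of -8.30, -6.56 and -6.08. LCR80, LCR59, LCR67 and LCR24 had -0.87, -0.61, 0.25 and 0.66 and were not called, and LCR24 became a higher call after quantile normalization and LCR59 a lower one without in vitro replicate 2.

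Signalling lipids and secretion followed with smaller numbers of genes. PIPK11, a kinase of pollen that makes phosphatidylinositol 4,5-bisphosphate at the tip, had 27919.9, 29776 and 33004 in vitro and 45.7, 59.1 and 4.07 in Bud, a log2 fold of 9.38 ± 0.53 (SE, BH-adjusted p = 1.25e-07). PLC7, a phospholipase C, had 452, 312 and 473 in vitro and 61.7, 63.2 and 10.9 in Bud, a log2 fold of 2.94 ± 0.47 (SE, BH-adjusted p = 0.0002). The kinases PIP5K7 and PIP5K8 went the other way, with -2.40 and -2.39, so of the 4 measured genes of 22, 2 rose and 2 fell. Over all probe sets 20.4% were called higher and 40.5% lower. Of 8 exocyst subunits, which tether secretory vesicles at the membrane, SEC5B (1.44), SEC6 (1.08) and SEC15A (0.93) rose and EXO84C (-3.09), EXO84B (-2.29), SEC5A (-1.78) and SEC15B (-1.29) fell, while SEC10 had -0.66 and was not called. After quantile normalization SEC5A and SEC15B were no longer called. The higher calls were unstable: 0 were left without Bud replicate 1, when SEC10 was called lower (-1.14), and 1 without in vitro replicate 1 or 2 or Bud replicate 3. The 2 copies of SEC5 thus had opposite calls before that scaling: SEC5B had 117, 68.8 and 138 in vitro and 4.57, 42.6 and 56.6 in Bud, and SEC5A had 208, 352 and 178 in vitro and 631, 1077 and 904 in Bud.

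Few transporters were measured. CHX21, a cation/proton exchanger of the pollen tube, had 305, 236 and 451 in vitro and 1.62, 2.12 and 2.23 in Bud, a log2 fold of 4.22 ± 0.33 (SE, BH-adjusted p = 7.5e-07). CHX19, of the same family, rose by 1.87, and GLR1.2, a glutamate receptor-like channel, by 1.01. All 3 measured of 35 ion transport and calcium genes were thus higher, against 20.4% of all probe sets. GLR1.2 was not called without in vitro replicate 1 or 2 or Bud replicate 1 or 2. STP10, a hexose carrier of tubes, had 1561, 1934 and 1873 in vitro and 2.26, 1.51 and 1.17 in Bud, a log2 fold of 6.67 ± 0.39 (SE, BH-adjusted p = 1.31e-07). Every Bud array lay at the bottom of the signal range for STP10. STP8 rose by 1.33, and the SWEET sugar carriers SWEET14, SWEET13 and SWEET8 fell, with -4.84, -3.50 and -1.93, SWEET8 not with equal array medians. AtVEX1 (SWEET5), a carrier of the vegetative cell, had 642, 1331 and 604 in vitro and 468, 753 and 371 in Bud, with overlap, and its log2 fold of 0.64 did not pass (adjusted p = 0.193). PDC2, a pyruvate decarboxylase and the 1 measured member of 11 listed genes of sucrose cleavage and fermentation, fell, with -1.82 (adjusted p = 0.00859), and was not called after quantile normalization.

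Several conserved families had some members up and others down, as did the array as a whole, with 20.4% of probe sets higher and 40.5% lower. Of 7 tubulins, which form microtubules, 4 rose and 3 fell. TUA1, an alpha-tubulin, had 48537, 51472 and 58789 in vitro and 661, 617 and 641 in Bud, a log2 fold of 6.33 ± 0.35 (SE, BH-adjusted p = 1.13e-07). TUB9, a beta-tubulin, had 53618, 53848 and 90602 in vitro and 1942, 2794 and 2165 in Bud, a log2 fold of 4.80 ± 0.34 (SE, BH-adjusted p = 4.15e-07). Neither overlapped between groups. TUB1 rose by 3.65. TUB6 fell to 64.3, 86.9 and 3.81 in vitro, against 2513, 2334 and 2985 in Bud, a log2 fold of -5.58 ± 0.53 (SE, BH-adjusted p = 3.27e-06), and TUB5 and TUB7 had -5.20 and -2.54. TUA6 was higher by 1.36, with 16575, 12873 and 10209 in vitro and 3073, 5694 and 7316 in Bud, but not after quantile normalization (0.27, adjusted p = 0.599).

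In the actin cytoskeleton, the track of vesicles to the tip, 8 of 11 measured genes rose (72.7%, against 20.4% of all probe sets) and 2 fell (18.2%, against 40.5%). ACT11 and ACT12, actins of pollen, rose by 3.37 ± 0.35 (SE, BH-adjusted p = 6.3e-06) and 4.28 ± 0.39 (SE, BH-adjusted p = 2.45e-06). LIM proteins, which bundle actin filaments, were called in both directions. PLIM2b had 23399.7, 38990.5 and 44895 in vitro and 535, 686 and 313 in Bud, a log2 fold of 6.10 ± 0.45 (SE, BH-adjusted p = 5.32e-07), and PLIM2a, also a pollen type, rose by 5.98. WLIM1, of the widely expressed type, fell to 30.6, 19.1 and 68 in vitro, against 2796, 2444 and 1458 in Bud, a log2 fold of -5.39 ± 0.46 (SE, BH-adjusted p = 1.51e-06). WLIM2a rose by 1.55 and WLIM2b fell, with -0.84 (adjusted p = 0.0396), but had 0.21 and was not called with equal array medians. The fimbrin FIM4 rose by 3.34, the myosins XIE and XIC by 2.01 and 0.96, and the myosin XI-I had -0.61 and was not called. WLIM2b was not called without in vitro replicate 1 or 3 or Bud replicate 2 or 3, nor with the replicate block. With the 6 arrays alone neither WLIM2b nor XIC was called. XIC was not called without in vitro replicate 1 or 2 or Bud replicate 1 or 3, and with an offset of 1 neither XIE, XIC nor WLIM2b was, which left 6 higher calls.

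Histones were divided as well: of 13 measured genes, all of the H2B or H1 type, 5 rose (38.5%, against 20.4% of all probe sets) and 8 fell (61.5%, against 40.5%). Their median was -3.05. AT5G02570, an H2B gene, had 32501, 17884 and 35804 in vitro and 1481, 840.2 and 451 in Bud, a log2 fold of 5.03 ± 0.46 (SE, BH-adjusted p = 2.61e-06). AT1G08170, another H2B gene, had 1027, 1147 and 1120.2 in vitro and 30.3, 85 and 56.1 in Bud, a log2 fold of 4.00 ± 0.40 (SE, BH-adjusted p = 4.62e-06). The groups did not overlap in either gene. AT3G09480, AT3G53650 and AT2G37470, also H2B, rose by 3.64, 1.68 and 1.65. HTB11, HTB1, HTB2, HTB4 and AT2G28720, the other H2B genes, had log2 folds of -5.23, -5.16, -4.56, -3.05 and -3.21. All 3 linker histones H1 fell: AT2G30620 had 96.3, 55.4 and 14.6 in vitro and 3746, 3709.7 and 3282 in Bud, a log2 fold of -5.84 ± 0.46 (SE, BH-adjusted p = 8.12e-07), AT1G06760 had -4.71, and the stress-induced HIS1-3 had -1.70, the last not called after quantile normalization.

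The V-ATPase, the proton pump of vacuoles and endosomes, had different calls among its a subunits. VHA-A3 rose, with 10868, 6469 and 3174 in vitro and 878, 975 and 1246 in Bud, a log2 fold of 2.55 ± 0.43 (SE, BH-adjusted p = 0.000321). VHA-A2 fell, with 88.9, 149 and 72.9 in vitro and 622, 1014 and 852 in Bud, a log2 fold of -2.84 ± 0.34 (SE, BH-adjusted p = 2.36e-05). VHA-A1, the endosomal form, had 276, 336 and 264 in vitro and 373, 500.3 and 416 in Bud, and its log2 fold of -0.53 was not called. The subunits VHA-F and VHA-cpp1 rose by 1.23 and 0.90 before but not after quantile normalization, VHA-cpp1 not without in vitro replicate 2 or Bud replicate 2 or 3, and VHA-H (-0.36) and VHA-D (0.01) were not called.

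Of 36 measured nuclear genes of mitochondrial respiration 22 fell (61.1%, against 40.5% of all probe sets), 8 rose (22.2%, against 20.4%) and 6 were not called, with a median of -1.51. After quantile normalization 22 were lower and 4 higher. The 2 genes of cytochrome c, the electron carrier between complexes III and IV, had opposite calls. CYTC-2 had 14734, 8195 and 16033 in vitro and 2846, 1771 and 1446 in Bud, a log2 fold of 2.67 ± 0.38 (SE, BH-adjusted p = 8.84e-05). CYTC-1 had 312, 182 and 446 in vitro and 14271, 10493 and 9545 in Bud, a log2 fold of -5.18 ± 0.40 (SE, BH-adjusted p = 7.1e-07). No in vitro array overlapped a Bud array for either gene. AT5G25450, a small subunit of complex III, rose, with 1541, 3872 and 4959.6 in vitro and 348, 179 and 233 in Bud, a log2 fold of 3.58 ± 0.52 (SE, BH-adjusted p = 9.23e-05), while AT5G40810, the cytochrome c1 of the same complex, had -4.59. AT5G52840, of complex I, had a log2 fold of -4.33. The other higher calls were AT3G52730 and AT2G01090, of complex III, with 1.27 and 1.00, the succinate dehydrogenase subunits SDH2-1 and SDH1-1, with 1.16 and 1.15, AT5G11770, of complex I, with 1.10, and AT4G26910, of the 2-oxoglutarate dehydrogenase complex, with 0.95. Of these 6, AT2G01090 and AT4G26910 were also called after quantile normalization, but each lost its call when any 1 of 4 arrays was left out and with the 6 arrays alone. Without in vitro replicate 2, and likewise without Bud replicate 3, 5 genes of the list were called higher.

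**Figure D5:**
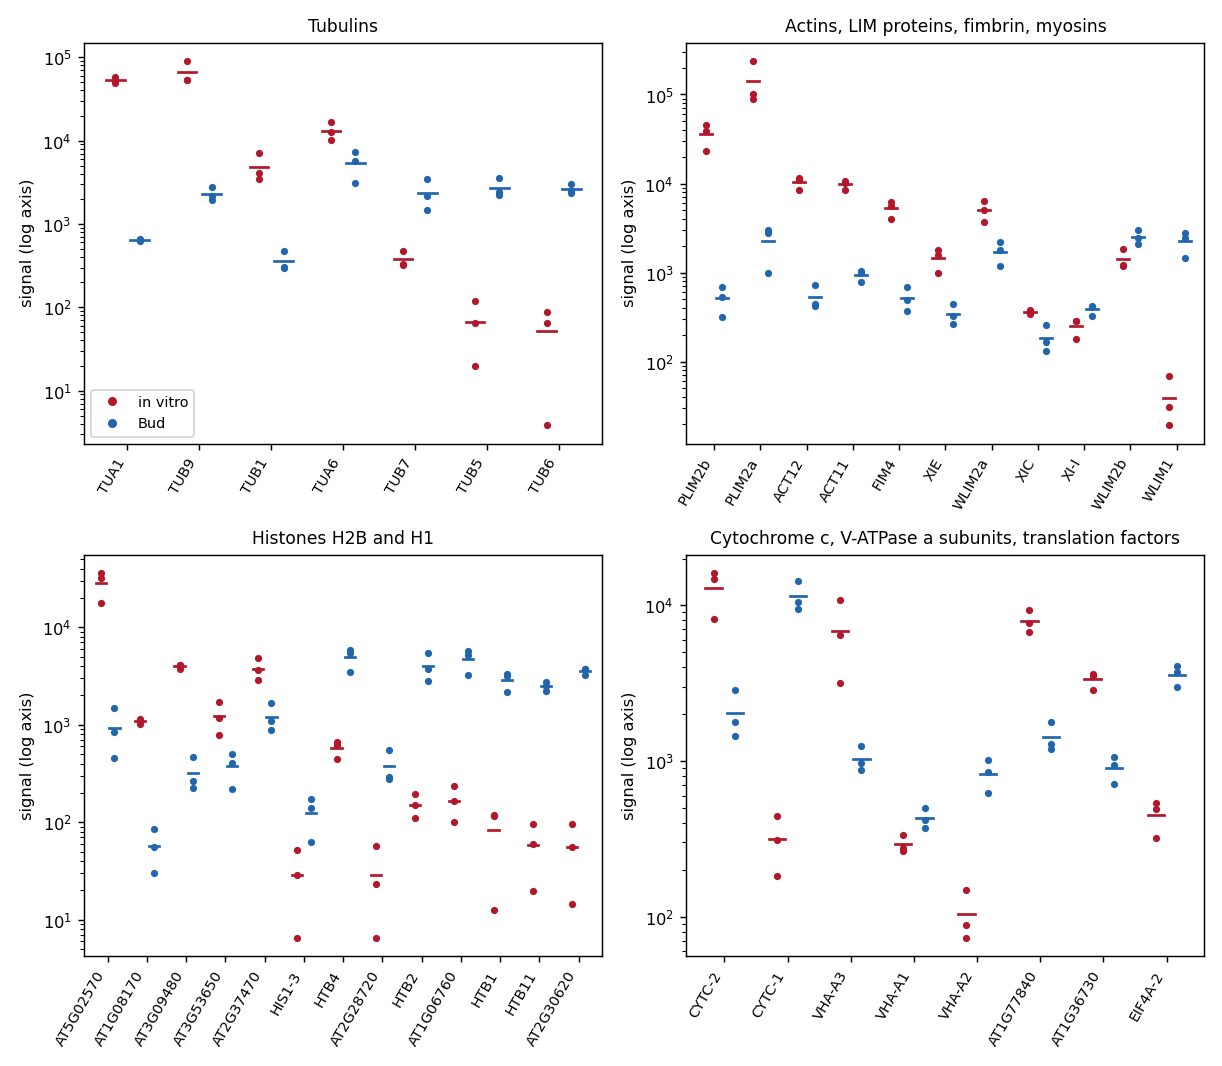
Signals (log axis) on each in vitro (red) and Bud (blue) array, with group means as bars, for tubulins, actin cytoskeleton genes, histones H2B and H1, and members of 3 other groups (cytochrome c, V-ATPase a subunits, translation factors). In every panel some members stand above Bud in vitro, such as TUA1 at 6.33, PLIM2b at 6.10, AT5G02570 at 5.03 and CYTC-2 at 2.67 on the log2 scale, and others below it, such as TUB6 at -5.58, WLIM1 at -5.39, AT2G30620 at -5.84 and CYTC-1 at -5.18.

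Vesicle coat genes of the COPI, COPII and clathrin systems, which carry cargo between endoplasmic reticulum, Golgi and plasma membrane, were lower in 15 of 31 measured genes (48.4%, near the 40.5% of all probe sets) and higher in 2 (6.45%, against 20.4%), and 14 were not called. After quantile normalization 10 were lower and 6 higher, against 27.4% and 30.0% of all probe sets. AT1G30630, the epsilon subunit of the COPI coat, had 83.3, 125 and 126 in vitro and 3003, 4496 and 4763 in Bud, a log2 fold of -5.0 ± 0.32 (SE, BH-adjusted p = 2.4e-07). AT5G05010, a COPI delta subunit, and AT2G21390, a COPI alpha subunit, had log2 folds of -3.76 and -3.35. AT3G01340, a SEC13 gene of the COPII coat, had -3.81. The genes that rose were AT1G18830, a SEC31 gene of the COPII coat, with 74.3, 131 and 323 in vitro and 4.27, 45.3 and 54.2 in Bud, a log2 fold of 1.90 ± 0.56 (SE, BH-adjusted p = 0.0118), and AT1G79990, a COPI beta-prime subunit, with 1.01, and neither was called without Bud replicate 1. The median of the list was -1.11, and it was -0.52 after quantile normalization and -0.05 with equal array medians.

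Transcription factors of the pollen vegetative cell were higher in 9 of 10 measured genes, against 20.4% of all probe sets. Their median was 4.23 (4.14 after quantile normalization). AGL29, a MADS-box factor, had 3236, 4186 and 3491 in vitro and 62.7, 85.8 and 22.6 in Bud, a log2 fold of 5.75 ± 0.42 (SE, BH-adjusted p = 5.24e-07). AGL65, a MADS-box factor of the pollen MIKC-star class, had 3849.8, 4328 and 4438 in vitro and 102, 148 and 133 in Bud, a log2 fold of 4.89 ± 0.36 (SE, BH-adjusted p = 5.29e-07). The groups did not overlap for any of the 9, beside 22.7% of all probe sets with every in vitro array above Bud. AGL30, AGL66 and AGL104, of the same class, rose by 4.14, 4.01 and 3.94, and AGL18 by 4.32. BZIP34, a basic leucine zipper factor that acts in pollen wall and lipid metabolism, had 1877, 1242 and 806 in vitro and 4.01, 30.3 and 39.2 in Bud, a log2 fold of 5.08 ± 0.44 (SE, BH-adjusted p = 1.78e-06), and BZIP18 and bZIP52 rose by 4.93 and 1.32. AGL94 had 15.4, 70.2 and 179 in vitro and 26.1, 26.8 and 40.2 in Bud, with overlap, and was not called (0.79, adjusted p = 0.32).

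A sperm histone and the measured genes of cell division rose. HTR10 (MGH3), the histone H3 of sperm, had 3443, 4448 and 5580.2 in vitro and 365, 293 and 128 in Bud, a log2 fold of 4.11 ± 0.41 (SE, BH-adjusted p = 5.43e-06). The tetraspanins TET11 and TET12 had log2 folds of 0.50 and 1.43 and were not called before quantile normalization, after which both were higher, and TET12 was also called without in vitro replicate 3. The mitotic Aurora kinases AUR2 and AUR1 rose by 4.28 ± 0.31 (SE, BH-adjusted p = 4.72e-07) and 3.76 ± 0.33 (SE, BH-adjusted p = 1.89e-06). AUR3 had 669, 1068 and 1248 in vitro and 111, 213 and 272 in Bud, a log2 fold of 2.27 ± 0.40 (SE, BH-adjusted p = 0.000427), and PRL, a helicase subunit of DNA replication, rose by 1.37. All 4 measured of 34 genes of replication and mitosis were thus higher, without overlap. Over all probe sets 20.4% were called higher, and 22.7% had every in vitro array above Bud.

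Genes of the tapetum and pollen coat fell in all 10 measured cases (against 40.5% of all probe sets), with a median of -5.61, and in 9 after quantile normalization (against 27.4%). ATA27, a glucosidase-like protein of the tapetum, had 26.5, 4.84 and 67.7 in vitro and 7701, 13756 and 11345 in Bud, a log2 fold of -7.99 ± 0.71 (SE, BH-adjusted p = 2.17e-06). KNS4, a glycosyltransferase of the pollen wall, had 15.5, 41.4 and 83.4 in vitro and 3863, 5975 and 5688 in Bud, a log2 fold of -6.50 ± 0.46 (SE, BH-adjusted p = 3.95e-07). The groups stood far apart in both genes. The extracellular lipases EXL5, EXL1 and EXL3, some of which sit in the pollen coat, had -6.31, -5.31 and -3.98, and EXL2 had -1.59 and was not called after quantile normalization, nor without in vitro replicate 2 or Bud replicate 1 or 2. The regulator AMS and the receptor EMS1 had -3.20 and -2.71. Of 8 measured floral organ and carpel genes 5 fell (62.5%, against 40.5% of all probe sets) and 1 rose (12.5%, against 20.4%). After quantile normalization 3 were lower and 3 higher, beside 27.4% and 30.0% of all probe sets. The receptor kinase FER, a relative of ANX1 in tissues outside pollen, had 9.75, 3.16 and 13.7 in vitro and 1319.8, 1914 and 2199 in Bud, a log2 fold of -6.19 ± 0.34 (SE, BH-adjusted p = 1.02e-07). NGA1, PTL, INO and SPT, regulators of floral organs and ovules, had -3.19, -2.14, -1.67 and -1.49, and INO and SPT were not called after quantile normalization or with equal array medians. RBE, a petal factor, had the 1 higher call (1.41, adjusted p = 0.029) on dim and overlapping arrays, and was not called without in vitro replicate 3 or without Bud replicate 2 or 3. JAG and UFO had 0.34 and 0.72 and were not called, UFO except without in vitro replicate 2.

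Genes of plastid function fell in most measured members of each list, beside 40.5% of all probe sets called lower. All 8 measured of 51 light-reaction genes fell, with a median of -7.37. PSAE-1, a subunit of photosystem I, had 60, 6.14 and 150.2 in vitro and 21607, 10336 and 16852 in Bud, a log2 fold of -7.90 ± 0.62 (SE, BH-adjusted p = 8.73e-07). LHCB4.1, an antenna protein of photosystem II, had 92.3, 92.9 and 10.1 in vitro and 10995, 12747 and 13088 in Bud, a log2 fold of -7.50 ± 0.51 (SE, BH-adjusted p = 3.09e-07). No in vitro array came near the Bud arrays in either gene. PSAN, LHCB4.2, PSBW, ATPC1, LHCB4.3 and PSBY had log2 folds of -8.67, -7.83, -7.24, -6.04, -5.75 and -5.59. All 5 measured of 28 carbon fixation and photorespiration genes fell. The Calvin cycle enzymes PRK and SBPASE had -6.55 and -6.06, and the Rubisco activase RCA had -5.72. The photorespiratory HPR and GLDT had -5.29 and -5.25. Chlorophyll synthesis fell in all 6 measured of 20 genes, led by PORB at -5.85 and CHLM at -5.30, then HEME2 (-4.79) and HEMB1 (-2.82). After quantile normalization HEME1 (-2.63 before it) and GSA1 (-1.85) were not called. The 8 measured of 36 nuclear genes for plastid ribosomal proteins all fell, with a median of -5.69. AT2G43030, the furthest, had 26.5, 13.6 and 58.3 in vitro and 10064, 5772 and 9422 in Bud, a log2 fold of -7.50 ± 0.41 (SE, BH-adjusted p = 1.05e-07). The other 7, AT5G24490, AT3G13120, AT3G54210, AT4G01310, AT5G47190, AT1G64510 and AT5G65220, had log2 folds of -5.87, -5.78, -5.71, -5.66, -5.19, -5.12 and -4.90.

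Genes in the plastid genome itself were called lower in 49 of 69 measured genes (71.0%, against 40.5% of all probe sets), with 35 after quantile normalization, and none was called higher (1 after quantile normalization). The tagged L18 is a protein of the cytosolic ribosome, so these signals cannot be read as mRNA on tagged ribosomes. How plastid mRNA came into the pull-downs was not tested. psbM, of photosystem II, had 194, 156 and 57.1 in vitro and 19958, 24197 and 27881 in Bud, a log2 fold of -7.43 ± 0.44 (SE, BH-adjusted p = 1.48e-07). rps4, of the plastid ribosome, had 165, 18.5 and 7.45 in vitro and 8670.0, 5404 and 7515 in Bud, a log2 fold of -7.07 ± 0.66 (SE, BH-adjusted p = 2.93e-06). The ATP synthase gene atpE had 1115, 515 and 64.4 in vitro and 49634, 32743 and 31814 in Bud, a log2 fold of -6.68 ± 0.95 (SE, BH-adjusted p = 8.12e-05). In each of these 3 genes in vitro replicate 1 was the highest in vitro array and replicate 3 the lowest. The 20 genes that were not called had log2 folds of up to 0.35, that of rpoC2, a subunit of the plastid RNA polymerase, with 75, 92.6 and 99.9 in vitro and 79.1, 62.8 and 57.4 in Bud.

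Some bright genes differed little between the groups as deposited. Among probe sets with 1 named gene and a mean over the 6 arrays above the 90th percentile, the 6 with the smallest difference were AT5G46020, AT3G58730, AT4G21110, AT1G70780, AT2G20820 and AT3G22845. AT5G46020 had 1952, 1969.8 and 2129.9 in vitro and 2543, 1656 and 1973 in Bud, a log2 fold of -0.01 with a 95% interval of -0.67 to 0.66. AT3G58730, which is VHA-D of the V-ATPase, had 2794, 2944 and 1830.2 in vitro and 1917, 2633 and 2909 in Bud, with an interval of -0.78 to 0.80. The arrays of both genes overlapped. The other 4 had log2 folds of -0.04 to 0.11, and after quantile normalization all 6 lay between -0.75 and -0.09, none of them called. With equal array medians all 6 were called higher, with log2 folds of 1.02 to 1.17, so their likeness depends on the scaling. Because MAS5 scales to an array's own mean, a signal that is alike in both groups is alike relative to the other mRNAs of the same array.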

How the data were processed

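The deposited values are intensity values on a linear scale, 1 per probe set and array, which the authors made with MAS5, per the submitters' processing notes (no version is stated there). The arrays were compared as deposited. Of 22810 probe sets 64 controls were left out, and 13513 of the rest have 1 gene in the annotation table given, 503 have several and 8730 are not listed there and were tested unnamed. Of the 13513, 13436 matched a RefSeq gene by Entrez gene ID. log2(signal + 16) was fitted with limma 3.58.1 in R 4.3.3 over all 9 arrays, 1 mean per group, with no filter, and adjusted by Benjamini-Hochberg over 22746 probe sets. Each array had been scaled to a mean of about 500 after trimming 2% at each end. The labels call the 3 samples of each group independent biological replicates, and their number limits the precision. A gene counts through its probe set with the highest mean over the 6 arrays. Family membership of genes known by locus code is from general knowledge of Arabidopsis families. The members and lists were chosen with earlier results of these data known, and 5 lists were added once the coverage of the array was known. Per list, up to 3 called genes with the largest folds in each direction are named, and all genes of lists with 8 or fewer measured members, with the 12 brightest calls in each direction, bright genes with the smallest difference, and list members called against most of their list. Others named, such as the families with divided calls, were chosen after their values were seen. Quantile normalization, equal medians, offsets of 1 and 64, a filter on dim probe sets, the 6 arrays alone, an intensity trend, a replicate block and each replicate left out were tried. Promoter motifs were planned and not analysed here, and a few named members are not reported here. The fit was tested on simulated data.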

Additional observations from a re-analysis of the deposited data

How the results depend on the processing

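Of 234 named genes called, 197 kept their call in all 14 alternatives and 37 lost it in 1 or more. WLIM2b (AT3G55770) changed sign, with 0.21 and an adjusted p of 0.619 by limma with equal array medians, so the lower call of that gene depends on the scaling. With equal medians 9490 probe sets were called higher, and 14 of 36 mitochondrial respiration genes and 9 of 31 vesicle coat genes lower. With the filter on dim probe sets 2888 were called higher, and 3616 after quantile normalization, out of fewer probe sets tested. Leaving out each replicate in turn gave 12539 to 14417 calls, the lowest without Bud replicate 2. Samples with the same replicate number did not deviate together (r of -0.05, 0.07 and -0.02 over probe sets), and the fit with the replicate block called 13844 probe sets, 4668 of them higher, and ended the call of no named gene but WLIM2b. In quantile-normalized signals the share of array signal held by cytosolic ribosomal proteins was 0.239% in vitro and 7.18% in Bud (0.104% and 5.82% as deposited), that of photosynthesis genes 0.00708% and 0.644% (0.00223% and 0.519%) and that of plastid-encoded genes 0.0431% and 0.906% (0.0154% and 0.797%). The in vitro share became 2.07% for pectin enzymes (3.19% as deposited), 0.605% for receptors (0.790%), 0.694% for LRX proteins (1.00%) and 0.00562% for tapetum genes (0.00189%). The scaling sets these values, and the cause of the unequal medians was not tested. Dim probe sets limit the rest: of 5017 with a mean below 50, 621 were called higher and 316 lower, and 1098 and 184 after quantile normalization. The planned search for promoter motifs was not run.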

Other observations

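Loci annotated as pseudogenes, gene copies held to be without a working protein, were more often higher than lower in cultured tubes. Of 989 measured loci 265 (26.8%) rose and 6 fell, beside 20.4% of all probe sets called higher and 40.5% lower, and most were dim, with 831 below a mean of 100 in both groups. A mean of 100 or more was reached by 154 loci in vitro and by 15 loci in Bud. AT4G21420 had 6025, 4394 and 5759 in vitro, against 98.8, 96.8 and 80.4 in Bud, a log2 fold of 5.64 ± 0.31 (SE, BH-adjusted p = 1.02e-07) by limma. AT2G38520 had 1281, 1197 and 936 in vitro and 85.3, 46.4 and 89.9 in Bud, a log2 fold of 3.71 ± 0.33 (SE, BH-adjusted p = 1.98e-06). AT1G55410 had 681, 1447 and 1260.4 in vitro and 30.2, 1.84 and 0.95 in Bud, and AT5G27180 had 940.0, 1313 and 932 in vitro and 17, 7.57 and 3.97 in Bud, with log2 folds of 5.50 and 5.41. In all 4 loci every in vitro array stood above every Bud array. AT2G15650 and AT4G20500, with log2 folds of 7.50 and 5.82, are read by probe sets whose suffix marks probes shared between transcripts. Among probe sets with a mean below 100 over the 6 arrays, 24.1% of 931 pseudogenes and 15.3% of 4712 protein-coding genes were called higher, and 0.322% and 15.4% were called lower. With equal array medians 814 of the 989 were called higher, and with the filter on dim probe sets, which left 18, the number was 11. Without Bud replicate 2 the number was 172. Cross-hybridisation with related genes was not tested.

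The autophagy list held members called in both directions. ATG8 proteins, which coat the autophagosome, come in several copies, and ATG8H had 16878, 13879 and 18370.2 in vitro and 799, 312 and 247 in Bud, a log2 fold of 5.30 ± 0.47 (SE, BH-adjusted p = 2.11e-06) by limma. ATG8F had 158, 150.0 and 15.6 in vitro and 3296, 2262 and 1958 in Bud, a log2 fold of -4.66 ± 0.58 (SE, BH-adjusted p = 2.8e-05). The groups did not overlap in either gene. ATG8D and ATG8E rose by log2 folds of 2.03 and 1.17, and ATG8G fell, with -1.94, and was not called after quantile normalization. Of 29 listed genes 10 were measured, all but ATG3 copies of ATG8, so the counts do not describe the rest of the list. Of these 10, 5 rose (50.0%, against 20.4% of all probe sets) and 2 fell (20.0%, against 40.5%). The number higher was 3 when any 1 array other than in vitro replicate 2 was left out, ATG8E among those lost.

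Of 239 listed cytochromes P450, a large family of oxidising enzymes, 24 were measured, most of them of the CYP71B group. Of the 24, 5 rose (20.8%) and 6 fell (25.0%), beside 20.4% and 40.5% of all probe sets. The higher calls were dim, with in vitro means of 26.6 to 122, and the lower calls had Bud means of 89.1 to 1385. CYP51G2 had 117, 76.5 and 165 in vitro and 3.81, 7.12 and 3.04 in Bud, a log2 fold of 2.67 ± 0.41 (SE, BH-adjusted p = 0.000146) by limma. CYP71B26 fell to 55.4, 12.1 and 9.67 in vitro, against 1470.1, 1576 and 1109 in Bud, a log2 fold of -5.22 ± 0.41 (SE, BH-adjusted p = 8.64e-07). CYP71B31 and CYP71B38 rose by 2.09 and 1.30, and CYP71B28 and CYP71B37 fell, with -3.28 and -2.48. After quantile normalization 8 were higher and 4 lower, and 3 were higher without Bud replicate 1. CYP71B38 was not called without in vitro replicate 1 or Bud replicate 1, nor with an offset of 1.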
